A study of Mus musculus with 40 samples.

Results

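The 32 genes described here encode carriers, receptors and partner proteins of the proximal tubule, the first segment of the renal tubule. They were listed by gene symbol and function, with earlier results of these data known, and make up 32 of the 18194 genes with a named probe set on the array. The samples were described as organs of male C57BL/6 mice, and the labels name no genetic change and no treatment. The stated sex was not checked against the values. There were 3 kidney groups and 3 lung groups (mice aged 1, 4 or 8 weeks) and 2 heart groups (1 or 4 weeks old). Each of these 8 groups held 5 arrays, and the design asks how expression differs between fast-growing and more slowly growing animals. RNA of the whole organ was hybridised to Affymetrix arrays, and each value is a probe set's signal, an intensity in arbitrary units. Lung and heart serve as reference organs here.

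The proximal tubule recovers most of the glucose, amino acids, phosphate, bicarbonate and small proteins that the glomerulus filters. Carriers in its apical brush border couple solute entry to the sodium gradient, other carriers in the basolateral membrane pass the solutes on to blood, and a separate set secretes organic anions and cations. Filtered proteins are taken up by large endocytic receptors at the base of the microvilli. In rodents these functions mature after birth, when nephrons formed in late gestation and the first days of life lengthen and differentiate.

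A pair of arrays went against their labels, and both were left out of the values below unless all arrays as labelled are named; the choice of each gene's probe set used all 40 arrays. The array labelled 1-week heart 5 had a signal of 27187 for Sftpc, the surfactant protein of alveolar type 2 cells, and of 2396 for Myh6, the atrial and ventricular myosin heavy chain, while the other 4 hearts of that age had 125 to 1072.5 and 36521 to 44803. The array labelled 1-week lung 4 had 1982.5 for Sftpc and 36022 for Myh6, against 23328 to 28922 and 611 to 1868 on the other 4 lungs. The 1-week heart and lung groups therefore hold 4 arrays. In the 15 kidney arrays Umod, the uromodulin gene of the thick ascending limb, read 10646 to 39080, and Myh6 read at most 86.9. No pair of arrays was identical, and the highest correlation between any pair was 0.974. The 1-week kidney 1, 4-week kidney 3 and 8-week kidney 5 arrays had the highest hybridisation controls of their groups (mean log2 signals of 11.8, 12.0 and 12.5) and also the highest reading of their group for 15, 18 and 15 of the 32 genes.

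Between 1 and 4 weeks, 30 of the 31 tested proximal tubule genes rose in the kidney and none fell (limma on log2(signal + 16), Benjamini-Hochberg adjusted p under 0.05). Over all 13781 genes tested in the kidney, 17.1% rose and 25.1% fell. Between 1 and 8 weeks 30 of 31 again rose and none fell, where 19.3% of all genes rose and 27.7% fell. The same 1-week arrays served both comparisons, so the counts are not independent. The median log2 change of the 31 genes was 1.07 by 4 weeks and 1.15 by 8 weeks, beside -0.05 and -0.04 over all genes tested, and 17 (4.46% of all genes) and 20 (5.31% of all genes) of them rose at least 2-fold. Every array of the later age lay above every 1-week array for 29 of the 31 genes by 4 weeks, as for 12.0% of all genes, and for 29 by 8 weeks, as for 14.6% of all genes. The 31 tested genes all reached the level needed for testing, a group mean signal of 118, already at 1 week. The remaining gene, Slco1a1, stayed below it in the kidney and was not tested. Because the RNA came from whole organs, a change in the share of proximal tubule cells and a change in RNA per cell cannot be told apart.

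**Figure D1:**
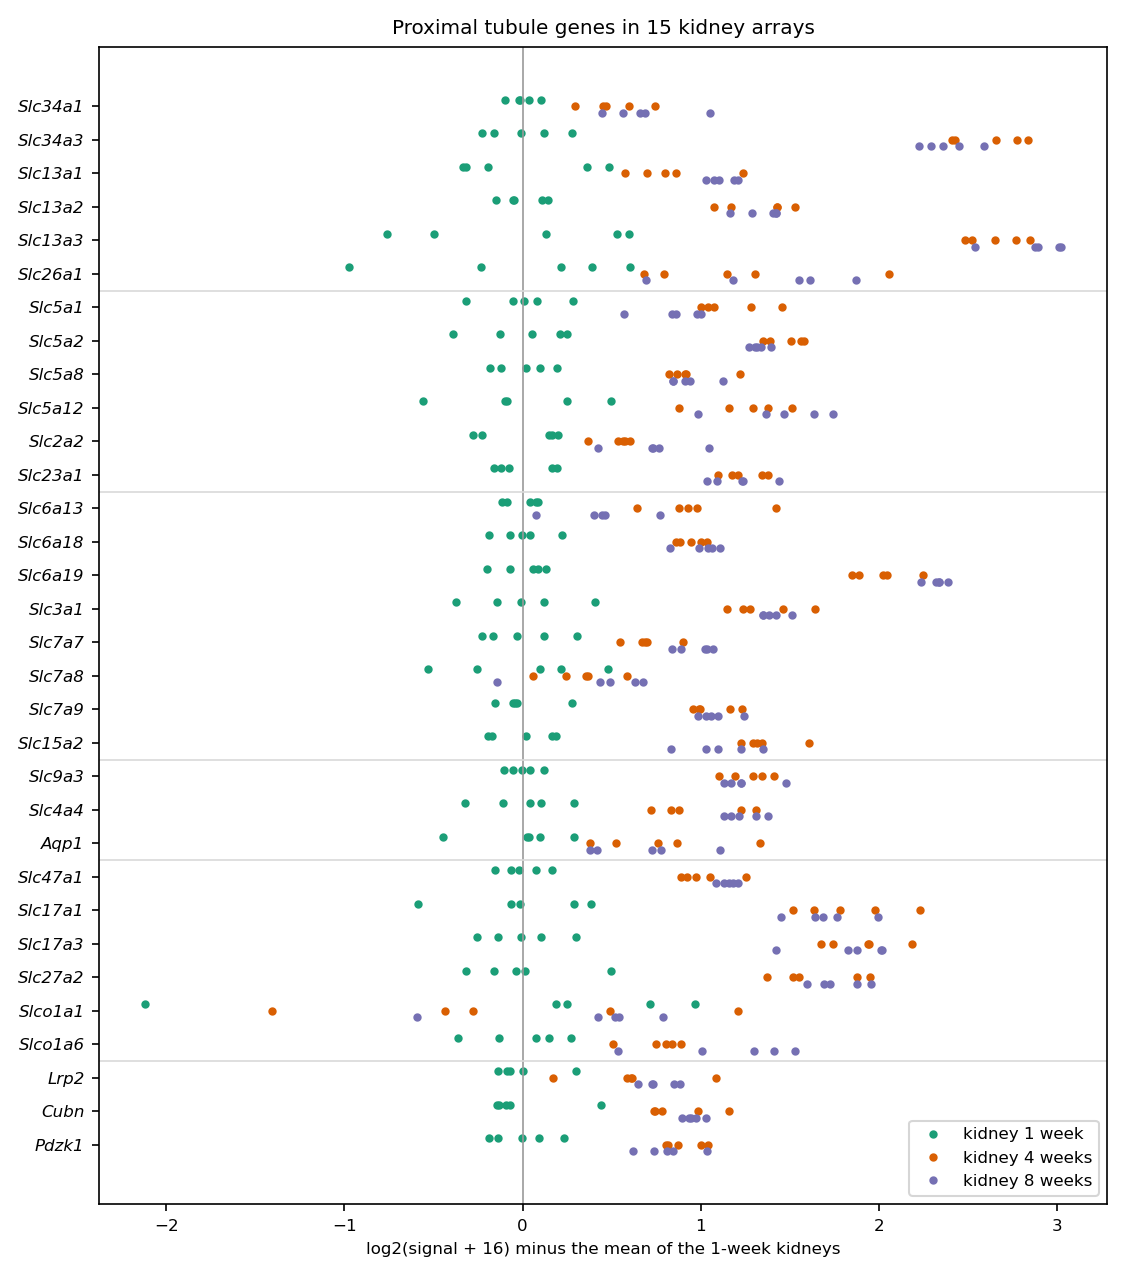
Signal of each of the 32 genes in every kidney array, as log2(signal + 16) minus the mean of the 1-week kidneys on the horizontal axis, with 1 point per array coloured by age and the genes grouped by role. Points at 4 and 8 weeks lie to the right of the 1-week points without overlap for 29 of the 31 tested genes at each age. Slco1a1, whose signals were near background, scatters widely.

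From 4 to 8 weeks none of the 31 genes was called in either direction, and 0.610% of all genes were. Unadjusted p-values from limma were under 0.05 for 6 of the 31 genes and for 1094 of the 13781. Of these 6, Slc6a19 (log2 change 0.31), Slc7a7 (0.27) and Slco1a6 (0.40) were higher at 8 weeks, and Slc6a13 (-0.54), Slc5a1 (-0.32) and Slc15a2 (-0.25) were lower. Expressed as the part of the 8-week change that was present at 4 weeks, the median over the 30 genes that rose was 95.1%, with a range from 65.6% for Slco1a6 to 225% for Slc6a13. The 8-week mean lay below the 4-week mean on the log2 scale for 12 of the 31 genes and above it for 19. These readings describe the group means; they do not show that the level stood still after 4 weeks, since 95% intervals for the later step spanned, for example, -0.07 to 0.41 for Slc34a1 and -0.26 to 0.69 for Slc13a3.

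**Figure D2:**
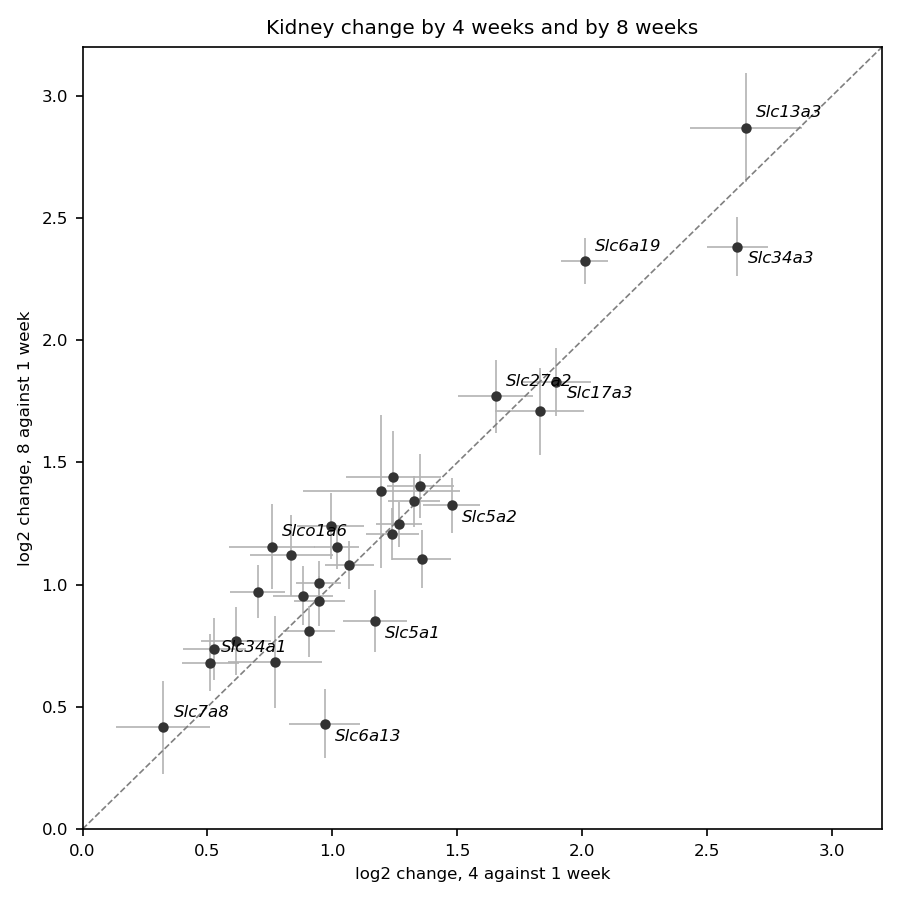
Log2 change of 31 genes in the kidney from 1 to 4 weeks (horizontal axis) against that from 1 to 8 weeks (vertical axis), with bars of 1 SE in both directions and a dashed line of equal values; both axes share the 1-week arrays. Most points lie near the line; Slc6a13 sits below it, at 0.97 by 4 weeks and 0.43 by 8 weeks.

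Promoter sequences are shown because most of the genes rose with age. RefSeq promoters (GRCm38.p6) were at hand for 26 of the 32 genes, and the 250 bases before the listed start were searched on both strands for 2 motifs. The motif CAAAGTCCA belongs to HNF4, a nuclear receptor family of liver, gut and proximal tubule. It was found in 1 of the 26 genes (3.85%), beside 0.451% of the 27025 genes with a promoter. A single gene is too few to compare these shares. The TATA box TATAAA was found in 4 (15.4%, beside 14.3%), a share close to that of all genes. Each sequence below is the 120 bases before the start on the coding strand, 5′ to 3′, with motif matches in capitals. Slc3a1 holds the HNF4 motif and, nearer the start, TATA box letters on both strands that overlap each other. Slc13a2 holds the letters TATAAA on the opposite strand, as does Slco1a1, which is not shown. Only these exact letters were searched, so other forms of a TATA box on either strand are not marked. Slc13a3, Slc34a3 and Slc6a19, the 3 largest rises from 1 to 8 weeks among the genes with a promoter, hold neither motif in these bases.
Slc3a1 (chr17:85028227-85028346, + strand): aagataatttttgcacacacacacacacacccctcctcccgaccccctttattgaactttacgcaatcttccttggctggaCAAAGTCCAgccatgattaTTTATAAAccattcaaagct
Slc13a2 (chr11:78422235-78422354, − strand): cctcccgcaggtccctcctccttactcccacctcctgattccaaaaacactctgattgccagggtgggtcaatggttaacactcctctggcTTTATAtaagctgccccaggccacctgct
Slc13a3 (chr2:165473198-165473317, − strand): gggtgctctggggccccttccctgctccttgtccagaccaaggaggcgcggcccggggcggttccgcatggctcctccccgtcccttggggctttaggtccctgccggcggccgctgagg
Slc34a3 (chr2:25234235-25234354, − strand): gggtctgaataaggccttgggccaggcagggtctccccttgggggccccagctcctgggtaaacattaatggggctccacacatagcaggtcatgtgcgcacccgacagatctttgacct
Slc6a19 (chr13:73692637-73692756, − strand): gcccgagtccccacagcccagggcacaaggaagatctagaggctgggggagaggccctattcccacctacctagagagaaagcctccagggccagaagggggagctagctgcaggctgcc
A match describes the letters of the sequence; binding was not measured.

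All 6 genes of phosphate, sulfate and dicarboxylate handling rose by both ages, and they held both the largest rises of the 31 genes and one of the smallest. The pair of sodium-phosphate cotransporters of the brush border rose by different amounts. Slc34a3 encodes NaPi-IIc, a cotransporter in which loss-of-function variants cause a hereditary phosphate-wasting rickets. Its probe set read 709, 795, 583, 648 and 554 at 1 week, 4757, 3532, 3583, 4202 and 4558 at 4 weeks, and 3104, 3416, 4000, 3633 and 3262 at 8 weeks. Every later array was above every 1-week array, and the 4- and 8-week readings overlapped. The log2 change was 2.62 (SE 0.12, adjusted p = 1.94e-10, a 6.15-fold rise) by 4 weeks and 2.38 (SE 0.12, adjusted p = 4.04e-10) by 8 weeks.

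Slc34a1 encodes NaPi-IIa, the carrier responsible for most phosphate recovery in the adult mouse. It read 18434, 17468, 19150, 20078 and 18509 at 1 week, 25623, 22914, 31327, 25847 and 28347 at 4 weeks, and 30074, 27651, 25530, 29503 and 38878 at 8 weeks. Every later array was above every 1-week array, while the 4- and 8-week readings overlapped. The rise was small, 0.51 on the log2 scale by 4 weeks (SE 0.11, adjusted p = 0.00196) and 0.68 by 8 weeks (SE 0.11, adjusted p = 0.000155). The log2 ratio of Slc34a3 to Slc34a1 within an array, which cancels whatever is common to both probe sets, rose above its 1-week mean by 2.11 ± 0.26 (SD, n = 5) at 4 weeks and 1.70 ± 0.335 at 8 weeks. At 1 week the same ratio varied between -0.21 and 0.38, with no overlap with either later age. This and the other gene pairs were chosen after their values were seen and are given as descriptions, with no test.

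Slc13a3, the basolateral sodium-dicarboxylate cotransporter that brings succinate and related acids into the cell, had the largest rise of the 31 genes. It read 959, 1795, 2484, 2369 and 1152 at 1 week, 11870, 10372, 9473, 9233 and 11238 at 4 weeks, and 9601, 12129, 13315, 12272 and 13415 at 8 weeks. The 1-week arrays varied widely among themselves, yet every later array stood far above the highest of them. The log2 change was 2.66 by 4 weeks (SE 0.22, adjusted p = 1.35e-07) and 2.87 by 8 weeks (SE 0.22, adjusted p = 4.46e-08, 7.31-fold). The probe set used for Slc13a3 is of a kind that can bind related transcripts, and another probe set of the gene gave 2.65 and 2.76.

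Slc13a1, which takes up sulfate at the brush border, rose less than Slc13a3 of the same family, by 0.84 (SE 0.17) at 4 weeks and 1.12 (SE 0.17) at 8 weeks, from 4106 ± 1157 to 7212 ± 1334 and 8684 ± 460 (mean ± SD, n = 5). The within-array ratio of Slc13a3 to Slc13a1 stood 1.82 ± 0.32 and 1.75 ± 0.19 above its 1-week mean on the log2 scale, with no overlap. Slc26a1, an anion exchanger that passes sulfate out across the basolateral membrane, rose by 1.20 (SE 0.31) and 1.38 (SE 0.31), with adjusted p of 0.00582 and 0.00186. Its readings were widely scattered at each age, at 438 ± 168, 1017 ± 435 and 1132 ± 332. Slc13a2, the apical citrate carrier, was far more even, with 947 ± 81.8, 2410 ± 320 and 2423 ± 188, a log2 rise of 1.33 and 1.34 (SE 0.11 each).

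All 6 carriers of sugars, lactate and vitamin C rose by both ages. Slc5a2 encodes SGLT2, which recovers most filtered glucose in the early proximal tubule. It read 5915, 3790, 5752, 5159 and 4551 at 1 week, 14863, 12705, 14129, 13029 and 14737 at 4 weeks, and 12296, 12392, 12020, 12577 and 13106 at 8 weeks. The later arrays were all above the 1-week arrays, and the 8-week arrays were the most uniform. Slc5a2 rose by 1.48 on the log2 scale by 4 weeks (SE 0.11, adjusted p = 4.84e-08) and 1.33 by 8 weeks (SE 0.11, adjusted p = 1.22e-07).

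Slc5a1 encodes SGLT1, which takes up remaining glucose in the later segments. It went from 824 ± 125 to 1872 ± 263 at 4 weeks and 1494 ± 173 at 8 weeks, changes of 1.17 and 0.85 (SE 0.13 each) against 1 week. The step down from 4 to 8 weeks, -0.32 (95% interval -0.59 to -0.05), was not called (adjusted p = 0.477). For Slc5a2 to Slc5a1 the within-array log2 ratio stood 0.31 ± 0.18 above its 1-week mean at 4 weeks, with overlap. At 8 weeks it stood 0.47 ± 0.17 above that mean, with no overlap with 1 week. Slc2a2 encodes GLUT2, the basolateral exit for glucose, and rose less, by 0.53 and 0.74 (SE 0.13 each, adjusted p = 0.00315 and 0.000181), from 3709 ± 585 to 5307 ± 334 and 6193 ± 954.

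The sodium-coupled lactate carriers also rose, Slc5a12 by 1.24 and 1.44 (SE 0.19 each) and Slc5a8 by 0.95 and 0.93 (SE 0.10 each). Slc5a12, the low-affinity form, read 1960 ± 533, 4574 ± 740 and 5269 ± 1010, and Slc5a8, the high-affinity form, 1693 ± 183, 3282 ± 384 and 3240 ± 270. The within-array ratio of the pair overlapped between ages. Slc23a1, which recovers vitamin C, rose by 1.24 and 1.21 (SE 0.11 each), from 2999 ± 356 to 7087 ± 577 and 6946 ± 774.

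Of the 8 genes of amino acid and peptide uptake, 7 rose by both ages and Slc7a8 was not called at either. Slc6a19 encodes B0AT1, the main brush-border carrier of neutral amino acids, whose loss causes Hartnup disorder. It read 1636, 1689, 1467, 1605 and 1340 at 1 week, 7385, 6327, 5751, 5592 and 6407 at 4 weeks, and 7861, 8134, 7844, 7762 and 7319 at 8 weeks. The 1-week readings lay far below all others, and the 4- and 8-week readings overlapped through the highest 4-week array alone. The log2 rise was 2.01 by 4 weeks (SE 0.09, adjusted p = 2.16e-10) and 2.32 by 8 weeks (SE 0.09, adjusted p = 3.93e-11, 5.0-fold).

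Slc6a18 encodes B0AT3, a related carrier of glycine and other neutral amino acids, and rose by 0.94 and 1.01 (SE 0.09 each), from 2588 ± 274 to 4980 ± 254 and 5203 ± 379. The within-array ratio of Slc6a19 to Slc6a18 stood 1.07 ± 0.21 above its 1-week mean at 4 weeks and 1.32 ± 0.11 above it at 8 weeks. No later array overlapped the 1-week range of -0.42 to 0.32.

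Slc6a13, a basolateral carrier of GABA, betaine and taurine, was the gene whose 4- and 8-week means stood furthest apart. It read 781, 893, 898, 795 and 870 at 1 week, 1624, 1681, 2292, 1327 and 1565 at 4 weeks, and 1123, 1454, 890, 1156 and 1172 at 8 weeks. All 4-week arrays exceeded the 1-week arrays, whereas 1 array of the 8-week group, 890, lay within the 1-week range. The log2 change was 0.97 by 4 weeks (SE 0.14, adjusted p = 4.4e-05) and 0.43 by 8 weeks (SE 0.14, adjusted p = 0.0202). The difference between 4 and 8 weeks, -0.54 (95% interval -0.84 to -0.24), was not called (adjusted p = 0.131). The 8-week call was lost without 8-week kidney 2 (0.35, adjusted p = 0.0604), without 1-week kidneys 1 and 5, which had high signals of the liver gene Alb (0.41, adjusted p = 0.072), and without 1-week kidneys 3 and 4, which had high adrenal markers (0.43, adjusted p = 0.0612).

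Slc3a1 and Slc7a9 encode the heavy chain and the light chain of the brush-border cystine transporter that is defective in cystinuria. Slc3a1 read 6387, 4364, 5241, 4785 and 3716 at 1 week, 11378, 10693, 15065, 11698 and 13284 at 4 weeks, and 12304, 12284, 12612, 12964 and 13774 at 8 weeks. Slc7a9 read 6693, 5342, 5403, 5314 and 4956, then 10963, 11008, 12360, 10712 and 12971, and then 11271, 13073, 11486, 11789 and 10916. Both genes cleared their 1-week range on every later array. The log2 rise was 1.35 and 1.40 (SE 0.13 each) for Slc3a1 and 1.07 and 1.08 (SE 0.10 each) for Slc7a9. The within-array ratio of Slc7a9 to Slc3a1 averaged -0.28 ± 0.12 at 4 weeks, with no overlap with 1 week, and -0.32 ± 0.15 at 8 weeks, where the ranges did overlap.

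Slc7a7 and Slc7a8 encode light chains of basolateral amino acid exchangers, y+LAT1 and LAT2, which pair with the heavy chain encoded by Slc3a2. Slc7a7 rose by 0.70 and 0.97 (SE 0.11 each), from 3342 ± 515 to 5408 ± 487 and 6525 ± 455. Slc7a8 read 1343, 2079, 1625, 2712 and 2258 at 1 week, 2930, 2516, 2024, 2488 and 2308 at 4 weeks, and 3017, 2735, 2637, 3113 and 1756 at 8 weeks. The 3 ages overlapped, and the log2 change was 0.32 (95% interval -0.08 to 0.73, adjusted p = 0.191) and 0.42 (0.01 to 0.82, adjusted p = 0.0842). For Slc7a7 to Slc7a8 the within-array ratio overlapped between ages.

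The call on Slc7a8 depended on arrays and settings. At 8 weeks, without 1-week kidney 4 the change was 0.54 (adjusted p = 0.0291), and without 8-week kidney 5 it was 0.56 (adjusted p = 0.0184). It was 0.425 (adjusted p = 0.0265) without the 3 arrays with the highest hybridisation controls. Slc7a8 was called by both ages with those 3 arrays as a block (0.32 and 0.42, adjusted p = 0.0494 and 0.0128) and where arrays were scaled to a common 75th percentile (0.48 and 0.58). Slc3a2, the shared heavy chain, rose by 0.52 by 8 weeks (SE 0.09, adjusted p = 0.000168) in the values as deposited and by 0.23 after quantile normalization (adjusted p = 0.0543). Slc15a2 encodes PEPT2, the high-affinity peptide carrier of the later proximal tubule, and rose by 1.36 and 1.11 (SE 0.12 each), from 1586 ± 199 to 4079 ± 436 and 3436 ± 466.

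The 3 genes of acid-base and water handling rose by both ages. Slc9a3 encodes NHE3, the apical sodium-proton exchanger that drives bicarbonate recovery. It read 1036, 1111, 1211, 1150 and 1073 at 1 week, 2750, 2991, 2412, 2851 and 2563 at 4 weeks, and 2527, 2463, 2626, 2625 and 3139 at 8 weeks. The 1-week arrays lay close together, and none came near a later array. Slc9a3 rose by 1.27 and 1.25 on the log2 scale (SE 0.09 each). Slc4a4 encodes NBCe1, the basolateral exit for bicarbonate, and rose by 0.99 and 1.24 (SE 0.13 each), from 5895 ± 925 to 11788 ± 2153 and 13834 ± 975.

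Aqp1 encodes the water channel of both membranes of the proximal tubule, and is also made by the descending thin limb and by endothelium. It read 5958, 6010, 4303, 6279 and 7177 at 1 week, 7616, 8440, 9962, 10708 and 14793 at 4 weeks, and 12687, 9728, 7629, 10076 and 7842 at 8 weeks. The later arrays lay above the 1-week arrays by a narrow margin. The log2 change was 0.77 by 4 weeks (SE 0.19, adjusted p = 0.00356) and 0.68 by 8 weeks (SE 0.19, adjusted p = 0.00734). After quantile normalization Aqp1 changed by 0.53 (adjusted p = 0.0673) and 0.415 (adjusted p = 0.136) and was not called at either age.

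Among the 6 genes of organic ion and fatty acid handling, 5 rose by both ages, with a median log2 change of 1.65 by 4 weeks and 1.71 by 8 weeks. Slc17a1 and Slc17a3 encode NPT1 and NPT4, carriers of urate and other organic anions. Slc17a1 read 4510, 3428, 4218, 3303 and 2292 at 1 week, 11943, 9946, 16274, 10797 and 13645 at 4 weeks, and 9492, 11809, 10812, 11177 and 13834 at 8 weeks. Slc17a3 read 2198, 1850, 2519, 2027 and 1706, then 7903, 6859, 9346, 6549 and 7865, and then 5489, 7543, 7286, 8287 and 8303. Each gene was well clear of its 1-week range on all later arrays. The log2 rise was 1.83 and 1.71 (SE 0.18 each) for Slc17a1 and 1.90 and 1.83 (SE 0.14 each) for Slc17a3. The within-array ratio of the pair overlapped between all ages.

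Slc27a2 encodes a very long-chain acyl-CoA synthetase that also promotes fatty acid uptake. It read 10877, 6179, 6884, 7782 and 7493 at 1 week, 22631, 19930, 29756, 22039 and 28320 at 4 weeks, and 28309, 24861, 23324, 25519 and 29956 at 8 weeks. The 1-week kidney 1 array was the highest of its group, still below every later array. Slc27a2 rose by 1.65 and 1.77 on the log2 scale (SE 0.15 each, adjusted p = 3.2e-07 and 1.2e-07).

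Slc47a1 encodes MATE1, which secretes organic cations into the urine in exchange for protons. Its log2 signal rose by 1.02 and 1.15 (SE 0.09 each), from 5345 ± 464 to 10851 ± 1128 and 11888 ± 391. Slco1a6 belongs to the organic anion transporting polypeptides and rose by 0.76 and 1.16 (SE 0.17 each, adjusted p = 0.00212 and 4.8e-05). Its 8-week readings of 3546, 6032, 4930, 6534 and 7085 spread more widely than the 3483 to 4548 of the 4-week arrays. Slco1a1, a close relative of Slco1a6, read 7.1 to 181 at 1 week, 21.9 to 216 at 4 weeks and 50.6 to 157 at 8 weeks, and its other probe set had group means of 29.6 to 31.5. Both probe sets of Slco1a1 were thus below the test level in the kidney at every age, and cross-binding of probes between these related genes was not tested.

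The endocytic receptors and their scaffold rose by less than the median gene of the 31. Lrp2 encodes megalin, the large receptor that takes up filtered proteins, vitamin carriers and drugs. It read 10994, 8490, 8936, 8130 and 8393 at 1 week, 10077, 13435, 18998, 13645 and 13679 at 4 weeks, and 14812, 14011, 14834, 16084 and 16520 at 8 weeks. The 4-week kidney 1 array fell inside the 1-week range, and all 8-week arrays lay above it. The log2 rise was 0.61 by 4 weeks (SE 0.14, adjusted p = 0.00204) and 0.77 by 8 weeks (SE 0.14, adjusted p = 0.000295).

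Cubn encodes cubilin, the partner receptor that lacks a membrane-spanning part of its own. It rose by 0.88 and 0.95 (SE 0.12 each), from 4917 ± 942 to 9021 ± 1207 and 9431 ± 321. Pdzk1 encodes a scaffold with PDZ domains that anchors several brush-border carriers, and rose by 0.91 and 0.81 (SE 0.10 each), from 9402 ± 1131 to 17575 ± 1339 and 16481 ± 1775. The within-array ratio of Cubn to Lrp2 overlapped between ages.

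**Figure D3:**
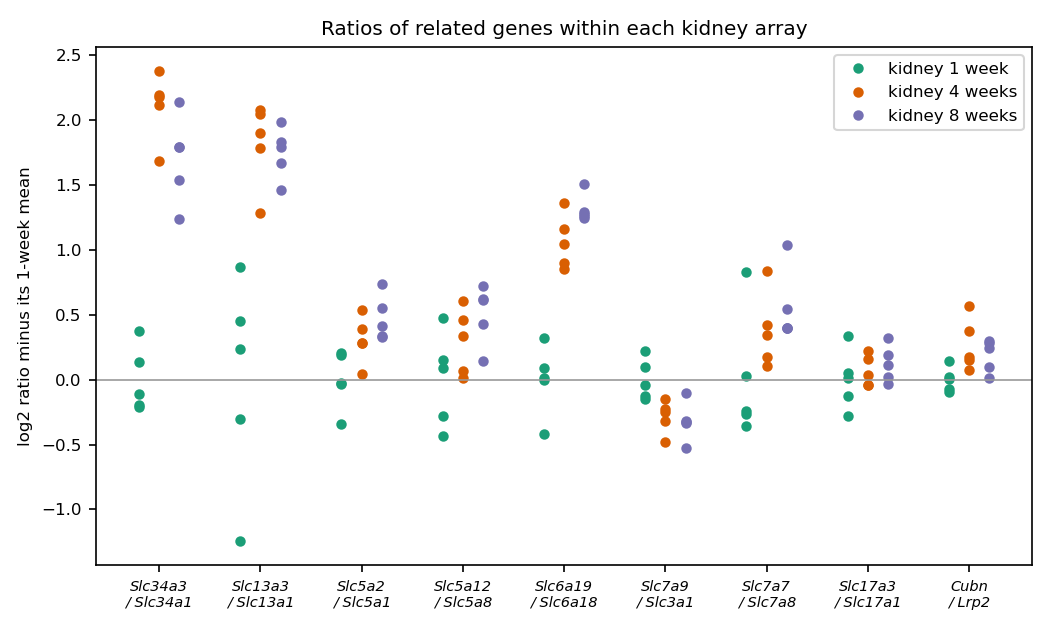
Log2 ratio of the signals of related genes within each kidney array, minus its mean at 1 week (vertical axis), for 9 gene pairs chosen after their values were seen, with 1 point per array coloured by age. Slc34a3 to Slc34a1, Slc13a3 to Slc13a1 and Slc6a19 to Slc6a18 stand above their 1-week range at both later ages, while most other pairs overlap with it.

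The same genes were then set against lung and heart. At 1 week 30 of the 32 genes were higher in kidney than in lung (24.1% of all 14955 genes in the fit over all organs were), Aqp1 was lower (25.0% of all genes were) and Slco1a1 was not called. At 8 weeks 30 were higher in kidney than in lung and none lower (29.0% and 35.5% of all genes), and at 4 weeks 30 were higher in kidney than in heart and none lower (30.7% and 29.2% of all genes). The median log2 difference was 4.58, 5.08 and 5.59 in these comparisons, beside -0.04, -0.05 and 0.02 over all genes. Pdzk1 differed by 7.40, 8.51 and 8.90, Slc27a2 by 6.76, 8.55 and 8.79 and Slc34a1 by 7.07, 7.84 and 8.12. In lung and heart 14 to 16 of the 32 genes reached the test level in a given group, so most differences rest on a kidney signal against a reading near background, where log2(signal + 16) understates the fold and the genes cannot be ranked.

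**Figure D4:**
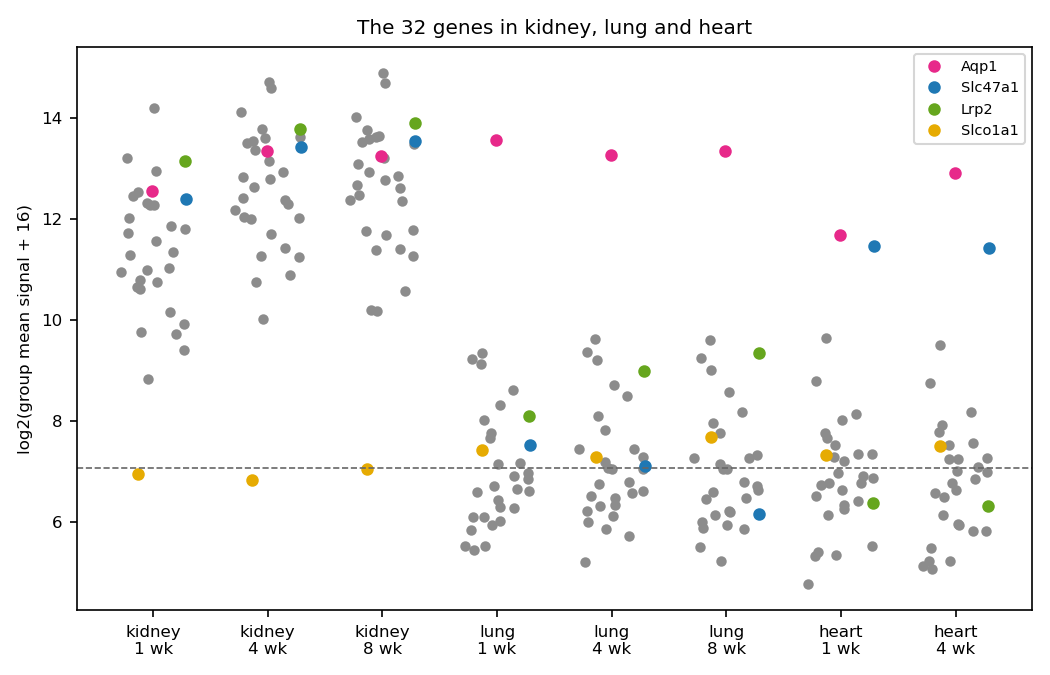
Group mean signal of each of the 32 genes in kidney, lung and heart by age, as log2(mean signal + 16), with the level needed for testing as a dashed line; sideways spread within a group only separates the points. Levels of different genes are not comparable on arrays; each gene is to be followed across groups, and Aqp1 stays high in lung and heart, Slc47a1 in heart, and Slco1a1 near the line throughout.

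A few of the genes had clear signals in the reference organs. Aqp1 averaged 12066 ± 970 (n = 4) in lung at 1 week and 10332 ± 916 at 8 weeks, beside 5945 ± 1040 and 9592 ± 2046 in kidney. The kidney minus lung difference was -1.04 (SE 0.21, adjusted p = 6.85e-05) at 1 week and -0.13 at 8 weeks (adjusted p = 0.58). The 1-week call was lost when all arrays were kept as labelled. Slc47a1 averaged 2781 ± 665 (n = 4) and 2728 ± 551 in heart at 1 and 4 weeks, its kidney level at 4 weeks being higher by 2.00 on the log2 scale (SE 0.21). Slc15a2 read 412 to 644 in lung at 1 week and 642 to 888 at 8 weeks, and Slc7a7 and Slc4a4 read 449 to 672 in lung over these ages.

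Fewer of the genes were called with age in lung or heart. In lung 17 of the genes were tested from 1 to 8 weeks, of which 3 rose (22.0% of all genes did) and 3 fell (21.9%). Slc5a12 rose by 1.73 (SE 0.12), from 30.1 ± 5.04 (n = 4) to 138 ± 21.3, Lrp2 by 1.29 (SE 0.14), from 257 ± 82.3 (n = 4) to 631 ± 44.1, and Slc15a2 by 0.47 (SE 0.12). Slc47a1 changed by -1.49 (SE 0.29), from 167 ± 23.3 (n = 4) to 55.4 ± 34.5, Slc17a3 by -0.44 (SE 0.14) and Slc4a4 by -0.32 (SE 0.08). In heart 15 were tested from 1 to 4 weeks, where 11.5% of all genes rose and 14.5% fell. Aqp1 rose by 1.31 (SE 0.27, adjusted p = 0.00599) and Cubn changed by -1.03 (SE 0.21, adjusted p = 0.0048). Cubn went from 242 ± 41.0 (n = 4) to 113 ± 35.3, the later mean being below the test level. With a filter at the 60th percentile none of the genes fell in heart. With all arrays kept as labelled, neither heart call held.

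The difference between the changes was tested gene by gene. Of the 16 genes whose mean reached the test level in lung at 1 or 8 weeks, 12 had a greater log2 change from 1 to 8 weeks in kidney than in lung and none a smaller one (11.2% and 19.8% of all genes at such a level). Of the 15 that reached it in heart at 1 or 4 weeks, 12 had a greater change from 1 to 4 weeks in kidney than in heart and none a smaller one (9.93% and 14.3%). Both tests use the 1-week kidney arrays. In some alternative settings 1 gene, Slc5a12 or Lrp2, was called with a smaller change in kidney than in lung. Slc6a19 differed by 2.35 from lung and 1.65 from heart (SE 0.31 each), Slc17a3 by 2.27 and 1.80 (SE 0.33 each) and Slc4a4 by 1.56 and 1.12 (SE 0.15 each).

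The other genes read below the test level in the reference organ, where a change may not show, and their difference rests on the kidney readings. They bring the calls to 25 of 32 against lung (11.8% of all genes, with 18.6% smaller) and 21 of 32 against heart (10.1%, with 13.3% smaller). Slc13a3 was among them in both organs, at 2.35 and 2.70 (SE 0.32 each), and Slc34a3 in lung (2.52, SE 0.39). Lrp2 reached the test level in lung but not in heart. It was not called, at -0.52 (SE 0.27, adjusted p = 0.14) against lung and 0.70 (SE 0.27, adjusted p = 0.0534) against heart. The call against lung was lost in 18 of 32 alternatives for Slc7a8, in 12 for Slc13a1 and in 9 for Slc15a2. Of these genes only Slc13a1 read below the test level in lung.

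Other carriers of organic ions in the proximal tubule moved in the same direction as the listed genes. Of 19 tested, 18 rose by 8 weeks and none fell, with a median log2 change of 1.69. Over all genes tested in the kidney 19.3% rose and 27.7% fell by 8 weeks, shares that apply to this list and each list below. Slc22a7, the organic anion transporter OAT2, rose by 4.18 (SE 0.25), from 142 ± 65.6 to 1478 ± 293 and 2764 ± 724, the efflux pump gene Abcb1b by 3.00, Slc22a18 by 2.73 and the carnitine exporter gene Slc16a9 by 2.73. Slc22a6 and Slc22a8, the main basolateral organic anion transporters OAT1 and OAT3, rose by 1.40 (SE 0.14) and 1.71 (SE 0.09). Slc2a9, a urate carrier, was not called (0.02, adjusted p = 0.93).

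Of 41 tested amino acid, sugar, phosphate and vitamin carriers outside the list, 25 rose by 8 weeks and 6 fell, with a median log2 change of 0.66. The largest changes were those of the amino acid carrier gene Slc7a12 (2.76), the ileal-type bile acid carrier gene Slc10a2 (2.40), the fructose carrier gene Slc2a5 (2.29) and the inositol carrier gene Slc5a11 (2.04). Slc7a13, a light chain of the late proximal tubule, fell by 0.88 (SE 0.22, adjusted p = 0.0035), from 1160 ± 113 to 661 ± 296. The intestinal-type phosphate cotransporter gene Slc34a2 and the glucose carrier gene Slc2a1 were not called (-0.34 and 0.29). Slc2a1 was called, at 0.45, with a common 75th percentile. Of 19 genes of sodium, acid and water handling, 14 rose and 1 fell, led by Car14 (2.04) and Car2 (1.04), which encode carbonic anhydrases, and by the potassium channel gene Kcnj15 (1.61) and the exchanger gene Slc9a8 (1.31).

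Enzymes of the same brush border did not move as one. Of 12 tested, 7 rose and 4 fell by 8 weeks, with a median of 0.51, beside 19.3% of all genes rising and 27.7% falling. Treh, the trehalase gene, rose by 3.44 (SE 0.11), from 71.5 ± 11.6 to 1048 ± 81.0 and 930 ± 77.5, Alpl, the tissue-nonspecific alkaline phosphatase gene, by 2.07 (SE 0.08) and Mgam, the maltase-glucoamylase gene, by 2.02 (SE 0.11). Dpp4, the gene of dipeptidyl peptidase 4, fell by 1.70 (SE 0.14, adjusted p = 7e-08), from 4110 ± 657 to 1584 ± 345 and 1248 ± 65.9. The other genes that fell were the peptidase genes Anpep (-1.01), Ace (-0.71) and Enpep (-0.52), and all 4 also fell under the other scalings of the arrays.

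Of 25 partners of the endocytic receptors and PDZ scaffolds, 10 rose and 7 fell by 8 weeks, beside 19.3% of all genes rising and 27.7% falling, with a median of 0.14 that turned to -0.09 after quantile normalization. The counts were 8 and 7 after quantile normalization and 13 and 5 with a common 75th percentile. Amn, which encodes amnionless, the membrane anchor of cubilin, was not called (0.07, SE 0.12, and -0.15 after quantile normalization). Dab2, an adaptor of megalin, was not called (0.23, SE 0.10, adjusted p = 0.054) and turned to -0.09 after quantile normalization. Slc9a3r1, which encodes the scaffold NHERF1, rose by 0.74 (SE 0.10), Pdzd3 and the microvillus gene Vil1 by 1.05 each, whereas the receptor gene Lrp1 (-1.52) and the recycling gene Rab11a (-0.95) fell.

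Of 14 transcription factors and hormone receptors of the proximal tubule, 12 rose and 1 fell by 8 weeks, with a median of 0.95. Hnf4a, a nuclear receptor of the differentiated proximal tubule, went from 4977 ± 1196 to 10763 ± 1288 and 10937 ± 940, a log2 rise of 1.16 (SE 0.14, adjusted p = 5.9e-06). Klf15 (2.41), Ppara (1.88), Ghr, the growth hormone receptor gene (1.78), and Nr1h4, the bile acid receptor gene (1.76), rose most. Fgfr1, which encodes a receptor for FGF23 when joined by klotho, fell by 0.55 (adjusted p = 0.0152), a call that was lost with a common 75th percentile.

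Markers of other kidney cells moved with age as well, beside 19.3% of all genes rising and 27.7% falling by 8 weeks. Of 16 distal nephron markers 11 rose and 3 fell by 8 weeks, with a median log2 change of 0.74 and a summed signal of 50504 to 62269 at 1 week, 91334 to 110771 at 4 weeks and 94168 to 118774 at 8 weeks. The largest rises were those of Pvalb (1.97), Slc26a4 (1.27), Slc12a3 (1.16) and Calb1 (1.14). Atp6v1b1, Scnn1b and Scnn1g fell, the first no longer called with either other scaling and the last not with a common 75th percentile. All 10 stroma and matrix markers fell (median -2.38, led by Col1a1 at -3.47, Postn at -3.14, Col3a1 at -2.51 and Col1a2 at -2.47), from summed signals of 66912 to 89571 down to 12726 to 15922. All 6 podocyte markers fell (median -1.20, led by Wt1 at -1.99 and Synpo at -1.51; sums of 9152 to 12449 and 4001 to 4843), as did 7 of 8 endothelial markers (median -0.78, led by Cldn5 at -1.69; 13195 to 17984 and 9495 to 10906). No marker of these 4 lists was below the test level in any kidney group. The part of these shifts in the changes of the proximal tubule genes was not tested.

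Markers of dividing cells fell too, all 10 of them, with a median of -2.86 and summed signals of 5970 to 8729 at 1 week, 2059 to 2943 at 4 weeks and 1053 to 1357 at 8 weeks, led by Birc5 (-4.56) and Cenpa (-3.69). Of 7 tested nephron progenitor and ureteric bud markers, 3 fell (Wnt4 -2.29, Wnt9b -1.72, Wnt11 -1.40) and Sall1 rose (0.81), with sums of 3504 to 4182 at 1 week and 3264 to 3560 at 8 weeks, while Cited1, Eya1, Gdnf and Osr1 were below the test level throughout. Of 6 immune cell markers 3 rose and none fell, led by the antigen presentation genes H2-Aa (3.44) and Cd74 (2.52), with sums of 4893 to 5594 and 13200 to 15186; Cd3e and Cd79a were below the test level. Of 2 tested erythroid markers Alas2 fell (-0.77) and Slc4a1, also a marker of intercalated cells, rose (0.53).

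Some markers of other organs were uneven among the 1-week kidneys. Of 6 liver markers 4 fell by 8 weeks (Afp -5.05, Fgb -2.99, Apoa1 -1.84, Ttr -1.50), with sums of 16833 to 40426 at 1 week and 5837 to 7448 at 8 weeks. Alb read 11531 in 1-week kidney 1 and 451 to 2921 in the other 1-week kidneys. Afp was high in each 1-week kidney, at 2772 to 5367. Of 7 adrenal markers none was called, with sums of 786 to 5467 at 1 week and 1189 to 1520 at 8 weeks. Of 3 tested adipocyte markers Ucp1 (-3.94) and Fabp4 (-1.62) fell, with sums of 7765 to 17255 and 2440 to 4017. No lung marker of 6 and no heart marker of 1 tested was called; the sums were 545 to 1338 and 246 to 736 at 1 week and 965 to 1494 and 341 to 543 at 8 weeks, and 7 of 8 heart markers were below the test level. Without the pair of 1-week kidneys with high Alb, 30 proximal tubule genes rose by 4 weeks and 29 by 8 weeks, and the same numbers rose without the pair with high adrenal markers.

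The log2 difference between the 3′ and 5′ actin control probe sets, a measure of RNA integrity, was 0.34 to 0.51 at 1 week, 0.61 to 1.43 at 4 weeks and 0.73 to 0.99 at 8 weeks, so it moved with age in the same samples. The same difference for the Gapdh control probe sets was -0.47 to -0.31, -0.32 to -0.18 and -0.36 to -0.25, with overlap between all ages. Their part in the changes was not tested. Without the 3 arrays with the highest hybridisation controls, 30 proximal tubule genes rose by 4 weeks and 31 by 8 weeks. Scaling to a common 75th percentile moved the median of all genes to 0.12 by 4 weeks and 0.13 by 8 weeks. That of the proximal tubule genes moved to 1.20 and 1.30, with 31 of 32 tested rising at both ages. With that scaling 59.0% and 59.2% of all calls were rises, against 40.6% and 41.1% in the values as deposited. Quantile normalization lowered the median of the proximal tubule genes to 0.95 and 0.98, with 29 of 32 tested rising at both ages. There 49.5% and 49.2% of all calls were rises.

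**Figure D5:**
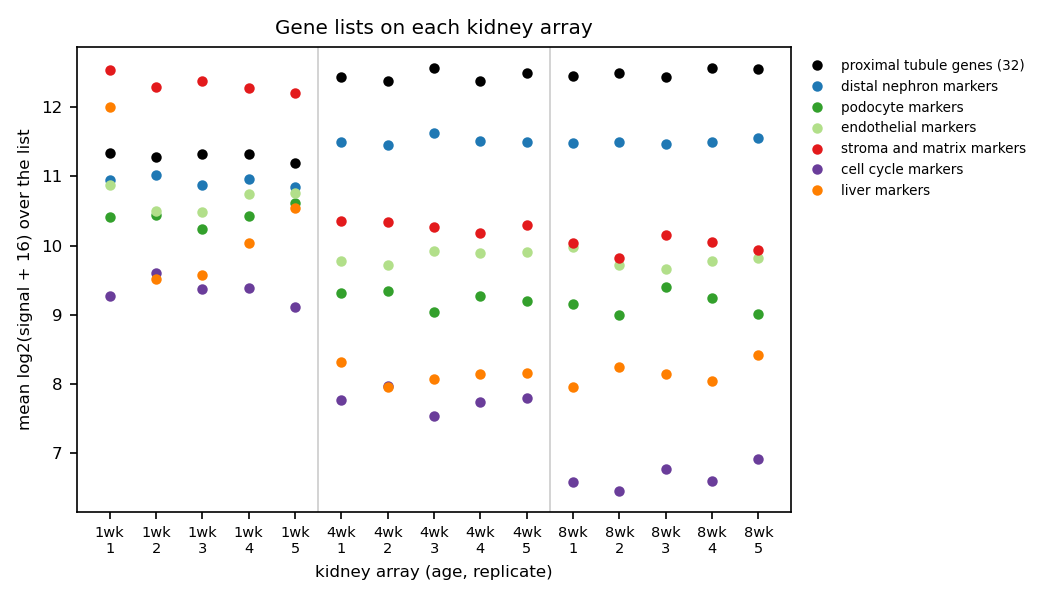
Mean log2(signal + 16) over the 32 proximal tubule genes and over 6 marker lists in each of the 15 kidney arrays, ordered by age and replicate; heights of different lists are not comparable. The proximal tubule genes run from 11.2 to 11.3 at 1 week, 12.4 to 12.6 at 4 weeks and 12.4 to 12.6 at 8 weeks, while stroma, podocyte, endothelial and cell cycle markers are lower after 1 week and liver markers are highest in 1-week kidney 1.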

How the data were processed

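The deposited values were Affymetrix probe set intensities on a linear scale, for 45101 probe sets in 40 arrays. RMA and Partek 6.6 are named, with no role, per the submitters' processing notes. The intensity values are not on a log scale, and each array's mean, trimmed by 2% at each end, was about 500, so the authors' summary method is not given in the sources used here. A platform table named 1 gene for 34958 probe sets, several for 932 and none for 9211. Each gene was represented by the probe set with the highest mean log2(signal + 16) over the 40 arrays. Group means were compared with limma 3.58.1 in R 4.3.3, with Benjamini-Hochberg adjustment over all genes tested and a threshold of 0.05. A gene was tested where its highest group mean in the fit reached the 40th percentile of all values, 118. Kidney comparisons used the 15 kidney arrays in 1 fit, and comparisons across organs the 38 arrays kept. Fold changes are on the log2(signal + 16) scale and understate those of low signals. The number of arrays limits the precision. The p-values rest on the spread between arrays within groups, pooled over all groups in a fit and moderated across genes by limma.

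All 32 genes are named. Of other lists the text names up to 4 genes with the largest changes among those called by 8 weeks, and Hnf4a, Amn, Dab2, Slc3a2, Slc22a6, Slc22a8, Slc9a3r1, Slc34a2, Slc2a1 and Slc7a13. Some further list members are named beside them after their values were seen. The genes and lists were chosen with earlier results of these data known. Offsets of 1 and 64, other filters, scalings and probe set rules, the replicate number as a block and leaving out each array were tried. The script was tested on simulated data.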

Additional observations from a re-analysis of the deposited data

Results flagged for a closer look

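A single array stood apart from the other 4 of its group for 6 of the proximal tubule genes. In 1-week kidney 1, Slc7a9 read 6693 (others 4956 to 5403), Lrp2 10994 (others 8130 to 8936) and Cubn 6594 (others 4392 to 4626). In 4-week kidney 3, Slc5a8 read 3953 (others 2991 to 3201) and Slc15a2 read 4831 (others 3708 to 4025). In 8-week kidney 5, Slc9a3 read 3139 (others 2463 to 2626). In each case the gap to the nearest of the others was over 0.71 of the whole range (Dixon's 95% critical value for 5 arrays). All 6 readings were high, and these are the 3 arrays with the highest hybridisation controls. A rate of 1 in 20 over 32 genes in 3 kidney groups comes to 4.8, beside the 6 seen. That figure takes the genes as independent, although they were read on the same arrays. The cause of these readings was not tested.

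The change from 1 to 8 weeks was greater in kidney than in lung, by limma's test of the difference, for 25 genes, 13 of which read below the test level in lung at 1 and 8 weeks. The log2 differences were 0.77 for Slc34a1, 2.52 for Slc34a3, 1.22 for Slc13a1, 2.35 for Slc13a3 and 1.92 for Slc26a1. They were 0.73 for Slc5a1, 1.31 for Slc5a2, 0.79 for Slc5a8 and 0.96 for Slc23a1. Among amino acid and peptide carriers they were 1.18 for Slc6a18, 2.35 for Slc6a19, 1.02 for Slc3a1, 0.93 for Slc7a7, 0.93 for Slc7a8 (adjusted p = 0.0457), 1.21 for Slc7a9 and 0.63 for Slc15a2. They were 1.34 for Slc9a3, 1.56 for Slc4a4, 0.91 for Aqp1, 2.64 for Slc47a1, 1.68 for Slc17a1, 2.27 for Slc17a3 and 1.79 for Slc27a2. Cubn differed by 1.45 and Pdzk1 by 1.10.

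The change from 1 to 4 weeks was greater in kidney than in heart for 21 genes, 9 of which read below the test level in heart at both ages. The log2 differences were 2.65 for Slc34a3, 1.95 for Slc13a1, 2.70 for Slc13a3, 0.94 for Slc5a1, 1.39 for Slc5a2, 1.36 for Slc5a8 and 1.24 for Slc23a1. They were 0.87 for Slc6a18, 1.65 for Slc6a19, 1.54 for Slc3a1, 0.75 for Slc7a7, 1.33 for Slc7a9 and 1.32 for Slc15a2. They were 1.03 for Slc9a3, 1.12 for Slc4a4, 1.04 for Slc47a1, 1.64 for Slc17a1, 1.80 for Slc17a3, 1.98 for Slc27a2, 1.91 for Cubn and 1.00 for Pdzk1.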

How the results depend on the processing

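The number of proximal tubule genes that rose in the kidney was 29 to 31 by 4 and by 8 weeks over the alternatives run, with none falling. The genes with a greater change in kidney than in lung numbered 20 to 28, and than in heart 21 to 29. The lowest of these came with an offset of 1 and quantile normalization for lung. At most 1 gene had a smaller change than in lung, and none than in heart. It came with quantile normalization, with probe sets averaged or chosen by linear mean, and without 1-week lung 2. Slc5a12 and Lrp2 each gained such a call in 2 of 32 alternatives. The number of genes of all kinds called between 4 and 8 weeks was 53 to 124 against 84, highest with a filter at the 60th percentile; with single arrays left out it was 53 to 82, being lowest without 4-week kidney 4 (53) and 8-week kidney 2 (54). Without a filter 2 of the genes fell in heart in place of 1. Leaving out the arrays with high hybridisation controls, liver or adrenal signals, treating the first as a block, and choosing probe sets by linear mean were added after seeing the data. Signs turned in values that were not called. Between 4 and 8 weeks Slc7a9 was -0.026 after quantile normalization, Slc9a3 was 0.11 with all probe sets averaged, and Slc5a8 and Slc23a1 were 0.0057 and 0.036 without the arrays with high hybridisation controls. With single arrays left out that step ran from -0.063 to 0.054 for Slc5a8, -0.048 to 0.066 for Slc13a2, -0.026 to 0.055 for Slc7a9, -0.080 to 0.015 for Slc9a3, -0.12 to 0.037 for Slc17a3, -0.090 to 0.011 for Slc23a1 and -0.20 to 0.051 for Aqp1. For the kidney minus lung change, an offset of 64 gave 0.32 for Slc5a12, 0.095 for Slc6a13 and -0.047 for Slco1a1; Slc6a13 was 0.0063 with a common 75th percentile and 0.22 with all arrays as labelled. Slco1a1 was -0.55 without the 1-week kidneys with high Alb and -0.48 without the arrays with high hybridisation controls. Leaving out single arrays gave -0.43 to 0.015 for Slc6a13 and -0.45 to 0.32 for Slco1a1. For the kidney minus heart change Slco1a1 was 0.054 without the 1-week kidneys with high adrenal markers, and -0.78 to 0.084 with single arrays left out. The cause was not tested.

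Between kidney arrays of different ages, the correlation of deviations for the same replicate number ran from -0.217 to 0.271 over 15 pairs. These arrays came from mice of different ages, so they cannot show whether organs with the same number came from the same mouse. Pairing between organs was not tested. With the replicate number as a block 30 of the genes rose by 4 and by 8 weeks, and 5537, 6174 and 68 genes in all were called by 4 weeks, by 8 weeks and between them, against 5820, 6477 and 84. Signals near background, as those of most of these genes in lung and heart, limit what the arrays can show.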

Other observations

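Other probe sets of the same genes gave further readings, with p-values from limma adjusted over all probe sets tested. For Slc5a2 a probe set not used above rose by 2.03 by 4 weeks and 1.76 by 8 weeks, for Slc6a19 by 2.17 and 2.40, and for Slc26a1 by 1.27 and 1.59. For Slc15a2 one probe set rose by 1.16 and 1.03 and another by 0.51 and 0.55 (adjusted p = 0.0315 and 0.0193). The 4 other probe sets of Slc4a4 rose by 0.78 to 1.78 by 4 weeks and by 1.14 to 2.26 by 8 weeks, the highest from a probe set that read 24.4 on average at 1 week. Another probe set of Slc13a3, which read 155 at 1 week and 244 at 8 weeks, was not called at either age (0.55 and 0.67), and neither was one of Lrp2 (0.44 at both ages).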
